A study of Homo sapiens with 9 samples.

Results

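The autophagy machinery comprises the proteins that build a double-membraned autophagosome around cell material and pass it to the lysosome. Its 39 genes described here were chosen by gene symbol, from a list of core autophagy factors, with earlier results of these data known. Each gene was found once among the 60612 genes of the table. Their transcripts were measured by RNA-seq in MDA-MB-231 cells, an established human line of triple-negative breast cancer. All cells received an siRNA with a lipid transfection reagent and were harvested 48 hours later. The 3 libraries of the control group had a negative control siRNA, 3 had siRNA1 and 3 had siRNA2, both directed against the long noncoding RNA MILIP. The treatment text calls the same siRNAs PLANE siRNAs, where the series title and the treatment labels name MILIP. No label says whether libraries of 1 group were grown as separate cultures, and the p-values therefore reflect only how these 9 libraries vary, part or all of which may be technical.

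Autophagy starts when the ULK kinase complex is activated, as happens when the growth kinase mTORC1 is inhibited. A lipid kinase complex built on BECN1 and PIK3C3 then marks the membrane, lipid transfer and scramblase proteins feed its growth, and enzymes that resemble the ubiquitin system attach small proteins of the ATG8 family (LC3 and GABARAP) to it. Cargo receptors such as SQSTM1, also called p62, bind ubiquitin on cargo and ATG8 proteins on the membrane. Transcript levels do not measure autophagic flux, and several of these proteins are themselves degraded in the lysosome.

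Total counts were 15281220 to 19759371 per library. MILIP, listed as MAFG-DT, was at 4.33, 4.35 and 4.53 FPKM (counts scaled by exonic length and library total) in the control group, 0.64, 0.33 and 1.01 under siRNA1 and 0.28, 0.51 and 0.18 under siRNA2, so each siRNA group lay below the control group. Of the markers fixed for the line, VIM, CD44, ZEB1, AXL and FN1 summed to 1190 to 1260 FPKM in the control group, 970 to 1030 under siRNA1 and 946 to 984 under siRNA2. ESR1, PGR, ERBB2, CDH1 and EPCAM summed to 7.02 to 8.94 FPKM over all libraries, with PGR listed at 0 in each. Among leukocyte markers PTPRC was at or near 0, CD3E was listed at 0 in each library, and CD14 made up most of the list's sum (1.05 to 1.68 FPKM in the control group, 0.43 to 1.38 under siRNA1 and 4.94 to 5.49 under siRNA2). The 4 endothelial markers summed to 1.2 to 1.51, 0.82 to 0.94 and 2.63 to 2.88 FPKM. Fibroblast markers moved with the groups: the 6 genes summed to 0.92 to 1.29 FPKM in the control group, 5.71 to 6.67 under siRNA1 and 7.99 to 8.28 under siRNA2, nearly all from COL1A1 and PDGFRB, while DCN and LUM were at or near 0. The part of these markers in the results below was not tested. In bulk RNA a change in the share of cells and a change of RNA per cell cannot be told apart.

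The autophagy genes spanned a wide range of levels. SQSTM1 was by far the most abundant of them in control libraries, at 136 ± 1.59 FPKM, 7.18 times the next, OPTN (18.9 ± 0.0173 FPKM; SD, n = 3 each). ATG101, GABARAP, ATG2A, ATG3 and NBR1 followed at 16.7 to 18.1 FPKM, an order whose neighbours lay within their spread. ULK1 (3.53 ± 0.0808 FPKM) and GABARAPL1 (3.41 ± 0.191 FPKM) were in the lower part of the list. In the deposited GRCh38 coordinates ULK1 lies at chr12:131894622-131923150, GABARAPL1 at chr12:10212458-10223128, SQSTM1 at chr5:179806398-179838078 (all plus strand) and WIPI1 at chr17:68420948-68457513 (minus strand). The median over the 37 tested members was 7.1 FPKM, against 3.83 for all tested genes. ULK2, a second ULK kinase, and MAP1LC3A had too few counts to be tested. ULK2 held 4 to 12 counts per library (0.03 to 0.08 FPKM). MAP1LC3A held 0 to 3 counts in 8 libraries and 13 counts (0.65 FPKM) in control library 3, and 3 counts correspond to 0.132 to 0.17 FPKM for a gene of its length.

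The receptor transcripts SQSTM1, OPTN, NBR1 and TAX1BP1, the kinase ULK1, and GABARAP and GABARAPL1 rose with both siRNAs. Genes of the conjugation step were called in both directions, and more members were called higher with siRNA2 than with siRNA1. With siRNA1, 15 of 37 tested members were called higher and 4 lower, at an adjusted p below 0.05 by edgeR's quasi-likelihood test over all 15345 tested genes; 25.1% of all tested genes were called higher and 25.3% lower (50.4% in either direction). With siRNA2, 20 members were higher and 5 lower, where the shares of all tested genes were 27.2% and 28.9% (56.1% together). The median log2 fold change of the members was 0.15 with siRNA1 and 0.26 with siRNA2, and that of all tested genes 0 and -0.01. The share of members called in either direction (51.4% with siRNA1 and 67.6% with siRNA2) can be set beside these shares of all genes; more of the members' calls were higher than lower, with 15 against 4 under siRNA1 and 20 against 5 under siRNA2. Of the members, 12 were higher with both siRNAs (11.8% of all tested genes were), 1 was lower with both (11.1%) and 2 were called in opposite directions (9.93%). These comparisons share the control libraries.

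A threshold of 1.5-fold on top of the test left 5 members higher and 1 lower with siRNA1, with 11.5% and 10.7% of all tested genes past it. With siRNA2 it left 12 higher and 1 lower, with 13.2% and 13.5% of all genes past it. In FPKM, all 3 siRNA1 libraries lay above all 3 control libraries for 16 of the 37 members and below them for 5, as they did for 29.1% and 24.4% of all tested genes. The siRNA2 libraries lay above for 23 and below for 5 (29.9% and 31.3% of all tested genes). The direct comparison of siRNA2 with siRNA1 called 16 members higher with siRNA2 and 5 lower (28.4% and 32% of all tested genes, 60.4% together), of which 7 and 2 changed at least 1.5-fold (15.3% and 16.4%). In FPKM the siRNA2 libraries lay above the siRNA1 libraries for 16 members and below for 7, and for 29.3% and 36% of all tested genes. Among the 37 members 21 had their highest mean FPKM with siRNA2, 12 with siRNA1 and 4 in control libraries. The same split was not made over all tested genes, so it cannot be called particular to the members.

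**Figure D1:**
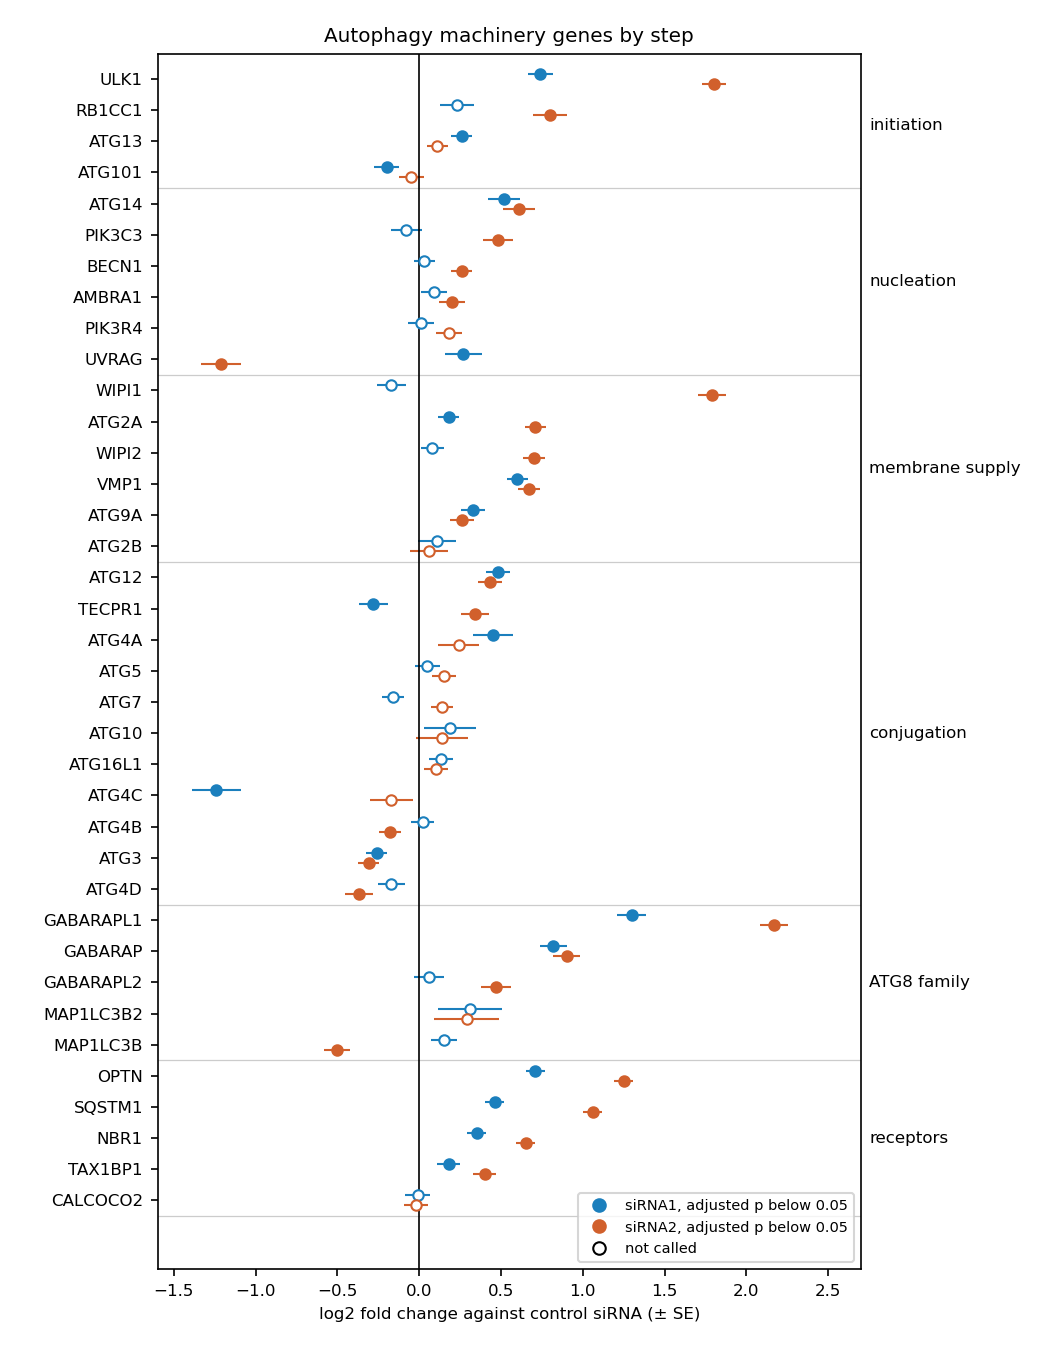
Log2 fold change against control (x axis, ± SE) of the 37 tested autophagy genes, grouped by step; blue points are siRNA1, orange points siRNA2, 3 libraries per group, and filled points passed an adjusted p of 0.05. GABARAPL1, ULK1 and WIPI1 lie furthest right with siRNA2 (2.17, 1.80 and 1.79), and ATG4C with siRNA1 (-1.24) and UVRAG with siRNA2 (-1.21) furthest left.

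The members with the largest drops were ATG4C with siRNA1 and UVRAG with siRNA2. ATG4C, one of the cysteine proteases that process ATG8 proteins, was at 2.93, 3.02 and 3.63 FPKM in the control group, 1.45, 1.39 and 1.3 under siRNA1 and 2.5, 3.31 and 2.73 under siRNA2. Its siRNA1 libraries lay below all others (log2 fold change -1.24, SE 0.148, adjusted p = 1.4e-07), and its siRNA2 libraries overlapped the control libraries (log2 fold change -0.17, adjusted p = 0.298). UVRAG, a subunit of the lipid kinase complex that acts in autophagosome and endosome maturation, was at 3.15, 2.68 and 3.45 FPKM in the control group, 3.6, 4.41 and 3.4 under siRNA1 and 1.27, 1.53 and 1.2 under siRNA2. Here the siRNA2 libraries were the low ones (log2 fold change -1.21, SE 0.123, adjusted p = 6.48e-09). With siRNA1 UVRAG was called higher by a narrow margin (log2 fold change 0.27, adjusted p = 0.0487), with overlapping libraries. That call was lost with DESeq2 (adjusted p = 0.0687), with DESeq2 size factors (0.0518), in a fit of the 2 groups alone (0.054) and with limma on FPKM (0.0868 and 0.105). It was also lost without control library 1 (0.0859) or 2 (0.254), siRNA1 library 1 (0.0747) or 2 (0.273), and siRNA2 library 1 (0.0599) or 3 (0.0529). MAP1LC3B, which encodes the LC3 protein most used as an autophagosome marker, was at 10.59, 10.97 and 11.16 FPKM in the control group, 12.31, 12.96 and 11.65 under siRNA1 and 8.56, 7.17 and 7.31 under siRNA2. It fell with siRNA2 (log2 fold change -0.50, SE 0.0795, adjusted p = 6.93e-06) and was not called with siRNA1 (0.15, adjusted p = 0.12).

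The 3′ UTRs of these 3 genes each hold the 7-base word tied to the siRNA with which they fell. An earlier analysis of the same fold changes picked AATTCCA or its form ATTCCAA for siRNA1, and GACCCTA or its form ACCCTAA for siRNA2, as the words most linked to lower transcripts, so the drop of a carrier is no separate evidence for them. MILIP itself holds AATTCCA and GACCCTA. The sites are shown with 10 bases on each side, in the sense of the transcript and with the word in capitals. They are given for MILIP and for the members called lower with the siRNA whose word they hold (ATG4C, ATG3, UVRAG and MAP1LC3B). VMP1 and ATG9A, which hold a word and rose, are shown as well. PIK3C3 holds ACCCTAA and also rose with siRNA2, and its site is not shown. Sequences and GRCh38 coordinates come from GENCODE release 29.
MILIP, siRNA1 word: gagtcagggcAATTCCAaccaagaaac
ATG4C: tgataagaagAATTCCAttgaaagggg
ATG3: acaagctgtcATTCCAAcaatagaata
VMP1: atctttaatcATTCCAAaattgtgtcc
MILIP, siRNA2 word: gtaacatagaGACCCTAtcgctacaag
UVRAG: tccacctttaGACCCTActgtcgcccc
MAP1LC3B: caccactttaGACCCTAtgtgtagcag
ATG9A: ttagggtgaaGACCCTAgcgtccagct
The MILIP sites shown lie at chr17:81930350-81930376 and chr17:81930474-81930500 on the plus strand; the form ATTCCAA overlaps the former and occurs again at chr17:81928138-81928164. The other siRNA1 sites are at chr1:62864179-62864205 (ATG4C, plus strand), chr3:112532727-112532753 (ATG3, minus strand) and chr17:59840575-59840601 (VMP1, plus strand). The siRNA2 sites are at chr11:76141961-76141987 (UVRAG, plus strand), chr16:87404318-87404344 (MAP1LC3B, plus strand) and chr2:219219829-219219855 (ATG9A, minus strand). The longest run of bases shared with MILIP around the word was 8 in UVRAG, 9 in MAP1LC3B, 8 in ATG9A, 8 in ATG3, 7 in ATG4C and 7 in VMP1. A run of at least 7 was fixed by the choice of these sites. Longer runs were not compared with those in other genes, so the lengths say nothing about targeting.

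Carrying a word did not go with a drop in every member. Either form of the siRNA1 word was in the 3′ UTR of 7 of 37 members (18.9%), against 24.9% of the 12583 tested genes with an annotated 3′ UTR. With siRNA1, ATG4C and ATG3 of these 7 fell, VMP1 rose, and WIPI2, CALCOCO2, PIK3C3 and MAP1LC3B were not called; ATG101 and TECPR1, the other members called lower, hold no siRNA1 word. The siRNA2 word was in 4 of 37 members (10.8%, against 11.7% of genes). With siRNA2, UVRAG and MAP1LC3B of these fell, and ATG9A and PIK3C3 rose. PIK3C3 holds only ACCCTAA, which MILIP lacks, and ATG9A, UVRAG and MAP1LC3B hold GACCCTA, which MILIP has. Whether the form matters was not tested. The other members called lower with siRNA2, ATG3, ATG4B and ATG4D, hold no siRNA2 word. The median log2 fold change with siRNA1 was -0.01 in the 7 carriers and 0.19 in the other 30, against -0.19 and 0.05 in all tested genes with a 3′ UTR. With siRNA2 it was -0.12 in the 4 carriers and 0.29 in the other 33, against -0.22 and 0.03. Carriers had longer 3′ UTRs, with a median of 1686 bases against 1325 in members for siRNA1 and 1732 against 1354 for siRNA2. Over all tested genes with a 3′ UTR the gap was larger, with 2922 bases against 1000 for siRNA1 and 2991 against 1197 for siRNA2. UTR length was not matched in either set, so these medians do not separate the word from UTR length. Of the 12 members higher with both siRNAs, VMP1 holds the siRNA1 word, ATG9A the siRNA2 word and the other 10 neither.

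**Figure D2:**
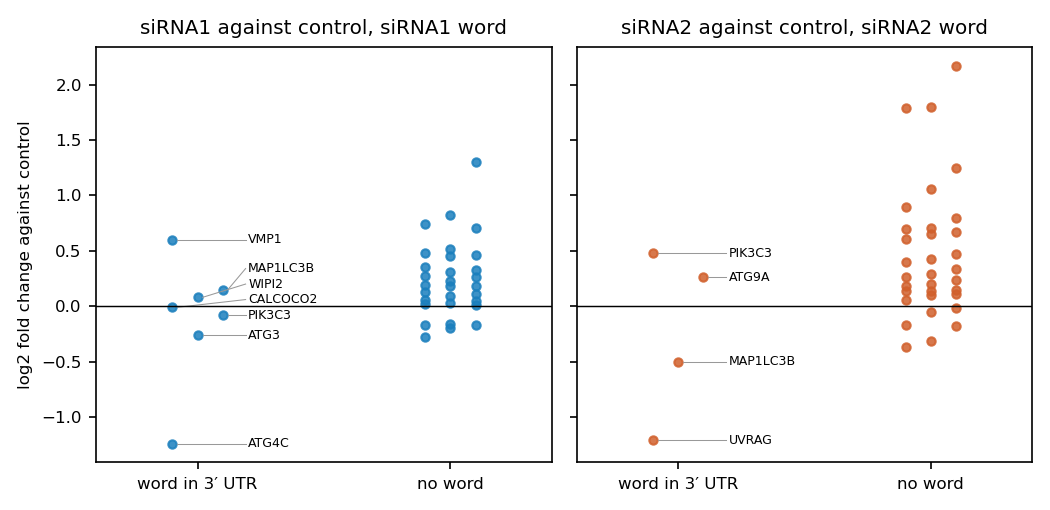
Log2 fold change against control (y axis) of the 37 tested members, split by whether the 3′ UTR holds the 7-base word of that siRNA; each point is 1 gene, and carriers are named. ATG4C (-1.24) stands alone at the bottom on the left, and UVRAG (-1.21) and MAP1LC3B (-0.50) are the lowest points on the right.

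At initiation, ULK1 rose with both siRNAs and RB1CC1 with siRNA2. ULK1, the kinase that starts the process, was at 3.6, 3.54 and 3.44 FPKM in the control group, 6.27, 5.73 and 6 under siRNA1 and 12.69, 12.21 and 11.87 under siRNA2. The 3 groups did not overlap, with control lowest and siRNA2 highest. The log2 fold change was 0.74 with siRNA1 (SE 0.0747, adjusted p = 9.45e-09), 1.80 with siRNA2 (SE 0.0727, adjusted p = 4.14e-16) and 1.06 between the siRNAs (adjusted p = 1.65e-12). RB1CC1, also called FIP200, the scaffold of the complex, was at 2.63, 2.7 and 2.25 FPKM in the control group, 2.64, 3.57 and 2.85 under siRNA1 and 4.21, 4.31 and 4.64 under siRNA2. It rose with siRNA2 (0.80, adjusted p = 3.4e-07), whose libraries lay above all others, and was not called with siRNA1 (0.23, adjusted p = 0.0683, and 0.0354 without siRNA1 library 1). ATG13, which links ULK1 to that scaffold, rose with siRNA1 (0.26, adjusted p = 0.00167) and was not called with siRNA2 (0.11, adjusted p = 0.159). The difference between the siRNAs for ATG13 (-0.15, adjusted p = 0.0457) lost its call in 14 of the 18 alternatives, with adjusted p up to 0.237 without siRNA2 library 2, and in the fits without any 1 of the 3 siRNA1 libraries, control library 1 or 3, or siRNA2 library 3 among them (0.0523 to 0.13). ATG101, which stabilises ATG13, was lower with siRNA1 (-0.20, adjusted p = 0.0377), a call lost in 9 of the 18 alternatives, among them the fits lacking control library 3 (adjusted p = 0.121), siRNA1 library 2 (0.147) or siRNA1 library 3 (0.0576). Summed over the 5 genes of this step, FPKM was 35.7 ± 0.621 in the control group, 39.2 ± 0.698 under siRNA1 and 46.6 ± 0.859 under siRNA2 (SD, n = 3 each).

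In the lipid kinase complex, 4 of 6 members rose with siRNA2 (66.7%, against 27.2% of all tested genes) and UVRAG fell. With siRNA1 ATG14 and UVRAG were called higher (33.3%, against 25.1%). The siRNA1 call of UVRAG had overlapping libraries and was lost in 12 of the 18 alternatives. ATG14, the subunit that directs the kinase to forming autophagosomes, was at 3.14, 2.84 and 2.65 FPKM in the control group, 3.98, 4.51 and 4.14 under siRNA1 and 4.57, 4.25 and 4.37 under siRNA2. Both siRNA groups lay above the control group and overlapped each other, and the log2 fold change was 0.52 with siRNA1 (adjusted p = 8.75e-05) and 0.61 with siRNA2 (adjusted p = 7.92e-06). ATG14 and UVRAG form alternative complexes with the same core, and with siRNA2 these subunits moved in opposite directions (0.61 and -1.21). The catalytic subunit PIK3C3 rose with siRNA2 (0.48, adjusted p = 8.51e-05) and was not called with siRNA1 (-0.08, adjusted p = 0.496). BECN1, the scaffold, did likewise (0.26, adjusted p = 0.00127, and 0.03, adjusted p = 0.733). PIK3R4, the regulatory subunit, was called with neither (0.01, adjusted p = 0.937 with siRNA1, and 0.18, adjusted p = 0.0657 with siRNA2, where 5 of the 18 alternatives called it, among them DESeq2 at 0.0484 and the fits without siRNA1 library 2 at 0.0486 and siRNA2 library 1 at 0.0443). The call of AMBRA1, a BECN1-binding regulator, with siRNA2 (0.20, adjusted p = 0.0285) was lost without control library 2 (0.0569) or 3 (0.0901) and without siRNA2 library 1 (0.115) or 2 (0.0603).

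Of the genes that feed the growing membrane, 5 of 6 rose with siRNA2 (83.3%, against 27.2% of all tested genes). With siRNA1 3 of 6 rose (50%, against 25.1%). WIPI1, which binds the lipid made by PIK3C3, showed the largest difference between the siRNAs of any member: it was at 7.16, 6.96 and 7.18 FPKM in the control group, 6.98, 6.23 and 6.06 under siRNA1 and 27.11, 22.71 and 24.11 under siRNA2. All siRNA2 libraries were over 3 times the siRNA1 libraries, and siRNA1 overlapped control (log2 fold change 1.79, SE 0.0845, adjusted p = 6.42e-15 with siRNA2; -0.17, adjusted p = 0.118 with siRNA1; 1.97, adjusted p = 5.66e-16 between them). Without siRNA1 library 1 WIPI1 was called lower with siRNA1 (adjusted p = 0.039). Its paralog WIPI2, which recruits ATG16L1, was at 6.83, 6.95 and 6.46 FPKM in the control group, 6.79, 7.12 and 7.8 under siRNA1 and 11.16, 10.78 and 10.93 under siRNA2. WIPI2 also rose only with siRNA2 in these tests (0.70, adjusted p = 3.01e-09, and 0.08, adjusted p = 0.374 with siRNA1), and the difference between the siRNAs was 0.62 (adjusted p = 1.49e-08).

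The lipid transfer protein gene ATG2A was at 17.29, 17.74 and 15.98 FPKM in the control group, 19.76, 19.05 and 19.89 under siRNA1 and 29.85, 27.07 and 26.78 under siRNA2. Its siRNA2 libraries lay above the other groups (log2 fold change 0.71, adjusted p = 5.49e-10); the smaller rise with siRNA1 (0.18, adjusted p = 0.0222) lost its call without control library 3 (0.118), siRNA1 library 1 (0.106) or siRNA1 library 3 (0.0747). The paralog ATG2B was called with neither siRNA (0.11 and 0.06). VMP1, a lipid scramblase of the endoplasmic reticulum, was at 14.52, 13.62 and 15.4 FPKM in the control group, 21.34, 23.53 and 22.62 under siRNA1 and 23.2, 21.59 and 24.46 under siRNA2. It rose with each siRNA (0.60, adjusted p = 2.79e-08, and 0.67, adjusted p = 3.46e-09). ATG9A, the scramblase of the vesicles that seed the membrane, was at 12.2, 13.49 and 11.64 FPKM in the control group, 15.37, 15.55 and 16.8 under siRNA1 and 14.04, 15.86 and 14.87 under siRNA2. Both siRNA groups lay above control (0.33, adjusted p = 0.000492, and 0.26, adjusted p = 0.00331). The summed FPKM of this step was 59.8 ± 1.44 in the control group, 73.9 ± 1.52 under siRNA1 and 104 ± 3.77 under siRNA2 (SD, n = 3 each).

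**Figure D3:**
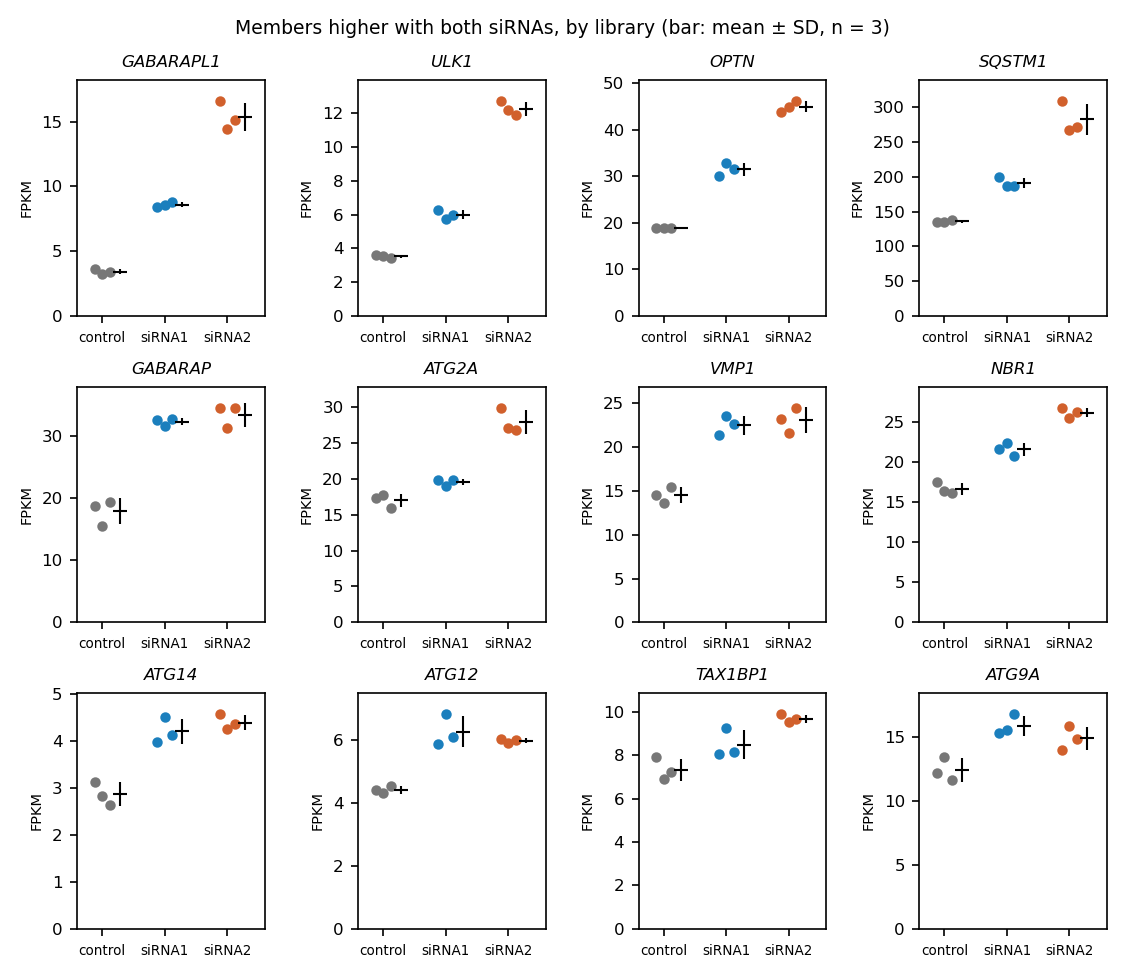
FPKM in each library (y axis, from 0) of the 12 members called higher with both siRNAs; grey points are control, blue siRNA1 and orange siRNA2, with the mean ± SD of 3 libraries beside them. In all 12 panels every siRNA library lies above every control library, and in 7 of them (GABARAPL1, ULK1, OPTN, SQSTM1, ATG2A, NBR1 and TAX1BP1) the siRNA2 libraries also lie above the siRNA1 libraries.

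In the conjugation step 2 of 11 tested genes were higher and 3 lower with each siRNA, shares near those of all tested genes (25.1% and 25.3% with siRNA1, 27.2% and 28.9% with siRNA2). The summed FPKM was 80 ± 0.904 in the control group, 77.6 ± 1.29 under siRNA1 and 76.8 ± 1.71 under siRNA2 (SD, n = 3 each). ATG12, the small protein that is joined to ATG5, was at 4.39, 4.3 and 4.54 FPKM in the control group, 5.87, 6.8 and 6.09 under siRNA1 and 6.03, 5.88 and 5.98 under siRNA2. It rose with both (0.48, adjusted p = 6.91e-06, and 0.43, adjusted p = 1.81e-05). ATG3, the enzyme that hands ATG8 proteins to lipid, was at 16.92, 15.85 and 17.97 FPKM in the control group, 14.57, 14.59 and 13.96 under siRNA1 and 13.7, 13.85 and 13.54 under siRNA2. ATG3 was the 1 member lower with both (-0.26, adjusted p = 0.00132, and -0.31, adjusted p = 0.00023). TECPR1, which binds the ATG12-ATG5 conjugate, was at 2.85, 3.25 and 2.96 FPKM in the control group, 2.6, 2.46 and 2.54 under siRNA1 and 3.98, 3.87 and 3.59 under siRNA2. Its groups did not overlap, with siRNA1 lowest and siRNA2 highest; the log2 fold change was -0.28 with siRNA1 (adjusted p = 0.0106, and 0.0645 without control library 2), 0.34 with siRNA2 (adjusted p = 0.00152) and 0.61 between the siRNAs (adjusted p = 9.67e-07).

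The 4 ATG4 proteases did not move together. ATG4C fell with siRNA1 as described, and ATG4A rose with siRNA1 (0.45, adjusted p = 0.00317) and was not called with siRNA2 (0.24, adjusted p = 0.0981). ATG4D was lower with siRNA2 (-0.37, adjusted p = 0.000598). So was ATG4B, the main protease of the family (-0.18, adjusted p = 0.0253), a call lost with DESeq2 (0.0509), with no filter (0.123), with a mean FPKM of at least 1 (0.0542) and without control library 2 (0.0881) or 3 (0.0711) or siRNA2 library 2 (0.0911) or 3 (0.0847). Unlike ATG12 and ATG3, the conjugation genes ATG5, ATG7, ATG10 and ATG16L1 passed the test with neither siRNA, with log2 fold changes from -0.16 to 0.19. ATG5 was called with siRNA2 where a mean FPKM of at least 1 was required (0.0333). ATG7, the activating enzyme, was higher with siRNA2 than with siRNA1 (0.29, adjusted p = 0.000498). Against control ATG7 was called lower with siRNA1 without control library 3 (0.0149) or siRNA1 library 1 (0.031). It was called higher with siRNA2 with DESeq2 (0.0442), its size factors (0.0434), a mean FPKM of at least 1 (0.0256) or without control library 1 (0.0276).

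Within the ATG8 family GABARAPL1 and GABARAP rose with both siRNAs, while MAP1LC3B fell with siRNA2. GABARAPL1 was at 3.61, 3.23 and 3.39 FPKM in the control group, 8.38, 8.55 and 8.76 under siRNA1 and 16.55, 14.45 and 15.12 under siRNA2. The groups were far apart, and it had the largest rise of any member with each siRNA (log2 fold change 1.30, SE 0.0886, adjusted p = 7.39e-12 with siRNA1; log2 fold change 2.17, SE 0.086, adjusted p = 2.71e-16 with siRNA2; 0.87, adjusted p = 5.44e-10 between them). GABARAP, the founding member of the branch, was at 18.73, 15.46 and 19.41 FPKM in the control group, 32.46, 31.59 and 32.63 under siRNA1 and 34.44, 31.18 and 34.46 under siRNA2. Both siRNA groups stood well above control and overlapped each other (0.82, adjusted p = 6.91e-09, and 0.90, adjusted p = 9.65e-10). GABARAPL2 rose with siRNA2 (0.47, adjusted p = 7.41e-05) and was not called with siRNA1 (0.06, adjusted p = 0.603). The GABARAP branch summed to 34.5 ± 4.01 FPKM in the control group, 54.9 ± 1.34 under siRNA1 and 67.2 ± 3.45 under siRNA2, and the LC3 branch to 12.8 ± 0.621, 14.5 ± 0.995 and 9.77 ± 1.01 FPKM (SD, n = 3 each).

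The make-up of the family differed between the groups. GABARAPL1 took 7.23% ± 0.604 of the family's FPKM in the control group, 12.3% ± 0.167 under siRNA1 and 20% ± 0.438 under siRNA2, and MAP1LC3B took 23.1% ± 1.95, 17.7% ± 0.997 and 9.97% ± 0.561 (SD, n = 3 each). The ratio of GABARAPL1 to MAP1LC3B FPKM was 0.294 to 0.341 in the control group, 0.66 to 0.752 under siRNA1 and 1.93 to 2.07 under siRNA2, without overlap between groups. MAP1LC3B2, an almost identical copy of MAP1LC3B on another chromosome, was called with neither siRNA (0.31 and 0.29). Of its 50-base words 43.4% also occur in MAP1LC3B, and 8.93% of those of MAP1LC3B occur in MAP1LC3B2, so the values of these genes, and of MAP1LC3B2 above all with its 48 to 84 counts per library, are uncertain.

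**Figure D4:**
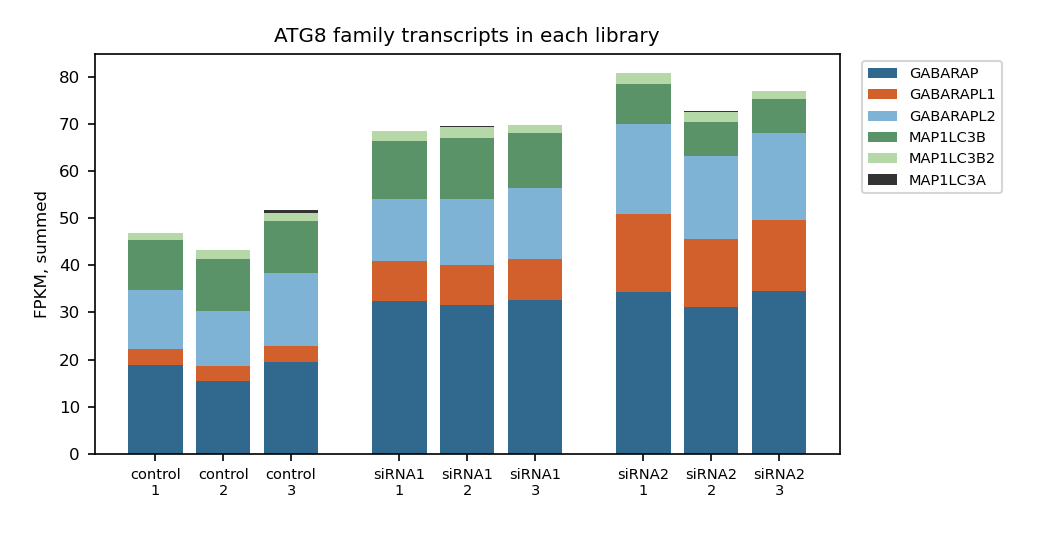
Summed FPKM of the 6 ATG8 family genes in each library (y axis, from 0), stacked by gene. The orange segment, GABARAPL1, grows from 3.23 to 3.61 FPKM in control libraries to 14.45 to 16.55 with siRNA2, while the dark green segment, MAP1LC3B, is 10.59 to 11.16 in control libraries and 7.17 to 8.56 with siRNA2.

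Cargo receptors rose with both siRNAs in 4 of 5 cases (80%, against 11.8% of all tested genes). SQSTM1 was at 134.6, 135.33 and 137.65 FPKM in the control group, 199.2, 187.37 and 186.21 under siRNA1 and 308.51, 268.11 and 271.19 under siRNA2. The groups did not overlap, with siRNA2 about 2 times control (log2 fold change 0.46, SE 0.0578, adjusted p = 2.88e-07 with siRNA1; log2 fold change 1.06, SE 0.0582, adjusted p = 1.12e-13 with siRNA2). OPTN, a receptor for damaged mitochondria and bacteria, was at 18.93, 18.9 and 18.93 FPKM in the control group, 30.01, 32.95 and 31.54 under siRNA1 and 43.86, 45.02 and 46.11 under siRNA2. OPTN had the largest rise among the receptors (0.71, adjusted p = 1.7e-10, and 1.25, adjusted p = 3.51e-15). NBR1, which acts with SQSTM1 on protein aggregates, was at 17.5, 16.37 and 16.15 FPKM in the control group, 21.65, 22.39 and 20.76 under siRNA1 and 26.75, 25.55 and 26.19 under siRNA2. Its groups were also separate (0.35, adjusted p = 1.82e-05, and 0.65, adjusted p = 6.21e-10). TAX1BP1, a ubiquitin-binding receptor, was at 7.89, 6.88 and 7.2 FPKM in the control group, 8.03, 9.25 and 8.16 under siRNA1 and 9.87, 9.5 and 9.67 under siRNA2. It rose with siRNA2 (0.40, adjusted p = 2.57e-05) and by less with siRNA1 (0.18, adjusted p = 0.0318), a call lost without control library 2 (0.152) or 3 (0.084) or siRNA1 library 2 (0.156), with no filter (0.0543) and with only the 2 groups in the fit (0.057).

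CALCOCO2, also called NDP52, the receptor most like TAX1BP1, was at 6.9 ± 0.629 FPKM in the control group, 7 ± 0.136 under siRNA1 and 6.8 ± 0.358 under siRNA2 (SD, n = 3 each) and was called in none of the 3 comparisons (log2 fold changes -0.01, -0.02 and -0.02, with SE 0.0744, 0.0742 and 0.0739). The 4 receptors that rose were each higher with siRNA2 than with siRNA1, by 0.59 (SQSTM1), 0.54 (OPTN), 0.30 (NBR1) and 0.22 (TAX1BP1) on the log2 scale, all called (28.4% of all tested genes were higher there). The receptors summed to 186 ± 1.35 FPKM in the control group, 260 ± 6 under siRNA1 and 370 ± 22.6 under siRNA2 (SD, n = 3 each), and SQSTM1 made up 73.2% ± 0.897, 73.6% ± 1.32 and 76.3% ± 1.38 of these sums.

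**Figure D5:**
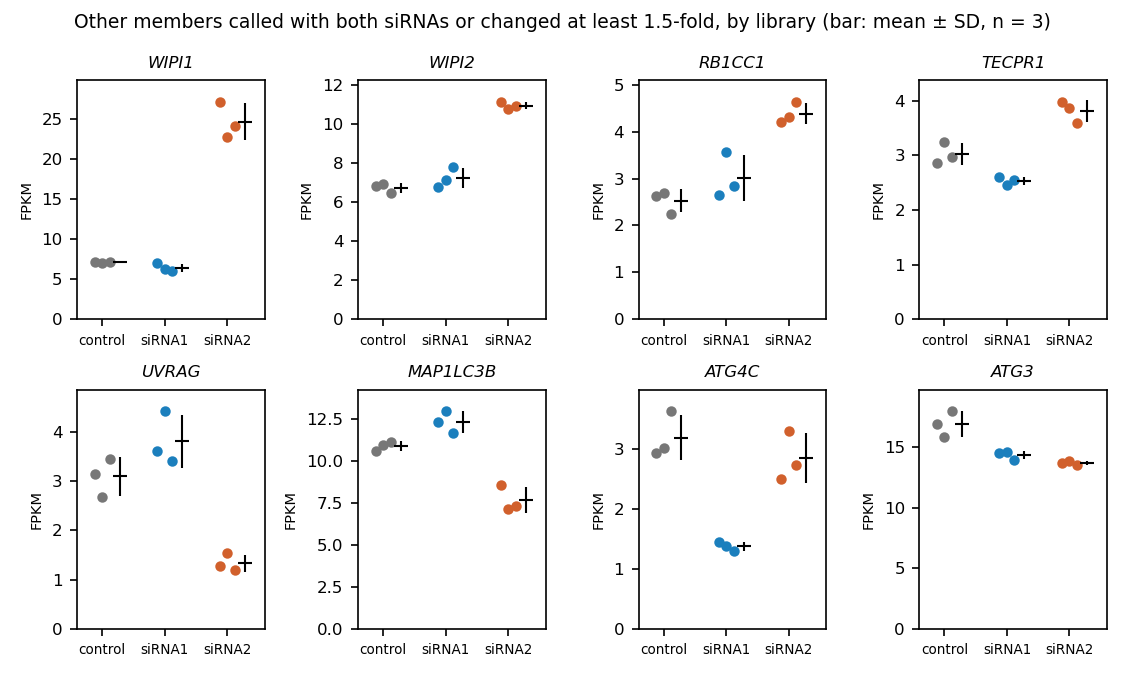
FPKM in each library (y axis, from 0) of the other 8 members that were called with both siRNAs or changed at least 1.5-fold in a comparison; grey points are control, blue siRNA1 and orange siRNA2, with the mean ± SD of 3 libraries beside them. WIPI1, WIPI2 and RB1CC1 are high with siRNA2, UVRAG and MAP1LC3B are low with siRNA2, and ATG4C is low with siRNA1.

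Reads of genes on opposite strands could not be told apart, since no source used here states whether the counting used strand. In the basic annotation of GENCODE release 29, exons of 15 of the 39 members overlap those of a gene on the opposite strand. The percentages below are of the exons in that annotation, not of the exonic lengths deposited with the counts. In it 19 of the 39 members had the same start and end as in the deposited coordinates. The overlap covers 39.8% of SQSTM1 exons, where MRNIP held 666 to 1557 counts per library against 15582 to 44422 of SQSTM1. It covers 28.5% of WIPI1 exons, with ARSG at 84 to 208 counts, and 32.2% of ATG7 exons, with VGLL4 at 628 to 1830 counts. In ATG4D it covers 17.5% of exons, where KRI1 held 887 to 1416 counts, more than ATG4D held in any library. In ATG12 it covers 8.7%, with AP3S1 at 474 to 1030 counts against 582 to 1054 of ATG12. In ATG4B it covers 7.0%, with THAP4 at 834 to 1312 counts. For GABARAP it is 25.2% of exons, with AC120057.3 at 15 to 62 counts. On the same strand AC068946.2, at 10 to 23 counts, shares 43.5% of ATG9A exons. ULK1, WIPI2, UVRAG, MAP1LC3B, ATG4C and TECPR1 have no such overlap.

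Outside the 39 members, 92 further genes of the pathway were taken from 6 lists, and 89 of them could be tested. These lists were chosen with earlier results of these data known, so the counts below describe them and are no independent test. With siRNA2 59 were higher (66.3%) and 12 lower (13.5%), against 27.2% and 28.9% of all tested genes. With siRNA1 37 were higher (41.6%) and 19 lower (21.3%), against 25.1% and 25.3%. With both siRNAs 26 were higher (29.2%) and 3 lower (3.37%), against 11.8% and 11.1% of all tested genes. Another 17 were called in opposite directions (19.1%, against 9.93%). They were 7 of 28 lysosomal genes, 3 of 12 further core factors and 3 of 12 genes for fusion with lysosomes. The rest were 2 of 14 organelle receptors, 1 of 15 upstream kinases and 1 of 8 transcription regulators. Of 28 lysosomal genes 26 were higher with siRNA2, and 15 were higher and 7 lower with siRNA1. The protease CTSD (1.15 with siRNA1 and 0.75 with siRNA2), PSAP, the precursor of the saposins (0.61 and 0.71), and ATP6V0E1, a subunit of the proton pump (0.62 and 0.59), rose with both. ATP6V1C1, another pump subunit, was at 17.7 ± 1.12 FPKM in the control group, 11 ± 0.79 under siRNA1 and 30.6 ± 1.2 under siRNA2 (SD, n = 3 each) and moved in opposite directions (-0.71, adjusted p = 3.62e-09, and 0.79, adjusted p = 1.97e-10). Of 12 tested further core factors all 12 were higher with siRNA2, against 2 higher and 3 lower with siRNA1. TP53INP2 (0.58 and 0.69), which binds ATG8 proteins, and TMEM41B (0.22 and 0.80), a scramblase that works with VMP1, were higher with both. RUBCN, an inhibitor of the UVRAG complex, was lower with siRNA1 (-0.47) and higher with siRNA2 (0.38). The siRNA1 call of TMEM41B was lost when control library 2 (adjusted p = 0.154) or 3 (0.175), siRNA1 library 1 (0.0769) or 2 (0.153), or siRNA2 library 1 (0.053) or 3 (0.0502) was left out.

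With siRNA2, 8 of 14 receptors for organelles were higher (57.1%, against 27.2% of all tested genes) and 1 was lower (7.14%, against 28.9%). With siRNA1, 6 were higher (42.9%, against 25.1%) and 2 lower (14.3%, against 25.3%). CALCOCO1, a receptor for the endoplasmic reticulum and Golgi and a paralog of CALCOCO2, rose with both (0.83, adjusted p = 7.47e-10, and 1.51, adjusted p = 6.83e-15), as did PINK1, the kinase that marks damaged mitochondria (0.74 and 0.92), and SEC62 (0.42 and 0.20). BNIP3L, a mitochondrial receptor, was at 16.3 ± 0.924 FPKM in the control group, 5.88 ± 0.36 under siRNA1 and 29 ± 1.29 under siRNA2 (SD, n = 3 each), lower with siRNA1 (-1.5, adjusted p = 2.01e-14) and higher with siRNA2 (0.83, adjusted p = 1.45e-10). Of 12 genes for fusion with lysosomes 6 were higher and 4 lower with siRNA1 (50% and 33.3%, against 25.1% and 25.3% of all tested genes), and 4 and 3 with siRNA2 (33.3% and 25%, near the 27.2% and 28.9% of all tested genes). VPS33A (0.91 and 0.63) and VPS18 (0.18 and 0.55), subunits of the tethering complex HOPS, rose with both, PLEKHM1 (-0.33 and -0.35), an adaptor for it, fell with both, and the SNARE protein gene YKT6 went up with siRNA1 (0.25) and down with siRNA2 (-0.47). SEC62 lost its siRNA2 call when control library 2 (adjusted p = 0.189) or siRNA2 library 2 (0.104) was left out. VPS18 lost its siRNA1 call in the fits lacking control library 1 (0.101), 2 (0.106) or 3 (0.0517), siRNA1 library 1 (0.358), or siRNA2 library 1 (0.0533), 2 (0.0585) or 3 (0.0561).

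Among upstream kinases, 4 of 15 were higher and 2 lower with siRNA1 (26.7% and 13.3%, against 25.1% and 25.3% of all tested genes), and 5 and 7 with siRNA2 (33.3% and 46.7%, against 27.2% and 28.9%). The AMPK subunits PRKAB2 (-0.41 and -0.47) and PRKAG2 (-0.36 and -1.38) fell with both, TSC1, an inhibitor of mTORC1 signalling, rose with both (0.33 and 0.56), and MLST8, an mTORC1 subunit, rose with siRNA1 (0.20) and fell with siRNA2 (-0.30). Of 8 transcription regulators 4 were higher and 1 lower with each siRNA. FOXO1 (1.11 and 0.80) and DDIT3 (0.50 and 0.42) were higher with both. The MiT/TFE factors, which drive lysosome and autophagy genes, did not move as 1 group. TFEB was at 0.817 ± 0.2 FPKM in the control group, 1.52 ± 0.177 under siRNA1 and 1.11 ± 0.0854 under siRNA2 (SD, n = 3 each) and rose with both (0.87, adjusted p = 8.13e-05, and 0.45, adjusted p = 0.0259). TFE3, the most abundant of them, was at 31.1 ± 1.77 FPKM in the control group, 23.5 ± 1.32 under siRNA1 and 36.8 ± 1.51 under siRNA2 (SD, n = 3 each), lower with siRNA1 (-0.43, adjusted p = 5.92e-06) and higher with siRNA2 (0.24, adjusted p = 0.00294). MITF was at 2.05 ± 0.11 FPKM in the control group, 3.68 ± 0.204 under siRNA1 and 1.79 ± 0.0666 under siRNA2 (SD, n = 3 each), and rose with siRNA1 (0.81, adjusted p = 8.92e-08) without being called with siRNA2 (-0.20, adjusted p = 0.0931). The siRNA2 call of TFEB was lost when control library 2 (0.0579) or 3 (0.173) or siRNA2 library 1 (0.0649) or 3 (0.0776) was left out, and with limma (0.0553 and 0.0555). The siRNA1 call of PRKAB2 was lost when control library 1 (0.0599) or siRNA1 library 1 (0.058) was left out. That of MLST8 was lost when control library 1 (0.26) or 2 (0.0767), siRNA1 library 1 (0.23) or 3 (0.2), or siRNA2 library 1 (0.0513), 2 (0.0582) or 3 (0.0569) was left out.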

How the data were processed

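RNA of 9 libraries was compared, grouped by their titles and treatment labels. The deposited table holds raw counts per gene and library, made by the authors. The deposited FPKM values were made from them by the authors: dividing each count by exonic length and library total gives 100% of them within 0.005. Trimmomatic 0.30, HISAT2 2.0.1, HTSeq 0.6.1 and DESeq are named, without roles, per the submitters' processing notes. The notes name hg19, but 99.84% of 58394 identifiers overlap the same gene of GENCODE release 29, which is on GRCh38.

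One edgeR 4.0.16 model (R 4.3.3) covered all 3 groups, with TMM scaling and the filterByExpr defaults of 10 counts and a total of 15. Its two-sided quasi-likelihood tests were adjusted after Benjamini and Hochberg over 15345 genes. The other 45267 genes, ULK2 and MAP1LC3A among them, were not tested. Tested members held 48 to 44422 counts per library. SEs come from the log2 fold change and the F statistic. The scripts were tested on simulated data. Alternatives used DESeq2 1.42.0, DESeq2 size factors, no filter, a mean FPKM of at least 1, limma 3.58.1 on log2(FPKM + 1) and log2(FPKM + 0.1), a replicate block, the 2 groups alone, a 1.5-fold minimum, and each library left out. The members, the lists and the 7-base words were chosen with earlier results of these data known. Values by library are given for members called with both siRNAs or changed at least 1.5-fold. Of each further list up to 3 genes moving the same way with both siRNAs and 1 moving in opposite ways are named, with TFEB, TFE3 and MITF. The words were searched in 3′ UTRs of all basic protein-coding transcripts, in the sense strand.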

Additional observations from a re-analysis of the deposited data

How the results depend on the processing

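No member that was called reversed its direction under any alternative run. Over member and comparison, 920 of 996 results kept their call under the 9 settings other than leaving out a library, 65 lost it and 11 gained it, and the 1.5-fold minimum accounts for 37 of the losses. Over the 9 fits without 1 library, 944 of 999 kept it, 41 lost it and 14 gained it. The count of members lower with siRNA2 than with siRNA1 was 5, and 3 with DESeq2, DESeq2 size factors, a mean FPKM of at least 1, the replicate block or the 2 groups alone, and 2 with no filter. Members called in opposite ways numbered 2, and 1 with DESeq2, DESeq2 size factors, limma on FPKM with either pseudocount or the 2 groups alone. With edgeR and the 1.5-fold minimum the counts were 5 higher and 1 lower with siRNA1, 12 and 1 with siRNA2, 7 and 2 between the siRNAs, 5 higher with both, 0 lower with both and 0 opposite. Without 1 library they were 13 to 15 higher and 3 to 6 lower with siRNA1, 19 to 21 and 4 to 5 with siRNA2, 16 to 18 and 2 to 4 between the siRNAs, 10 to 12 higher with both, 1 to 2 lower with both and 0 to 2 opposite. For the 89 further pathway genes the 1.5-fold minimum left 12 higher and 4 lower with siRNA1 (11.5% and 10.7% of all tested genes passed it). It left 20 and 5 with siRNA2 (13.2% and 13.5% of all tested genes), and 16 and 8 between the siRNAs (15.3% and 16.4%). Of 864 results for the 24 further pathway genes that are named, 802 kept their call and 62 lost it.

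The replicate numbers did not pair the libraries: correlations of same-numbered libraries ran from -0.0935 to 0.129, and 4 of 9 libraries correlated best with their own number. The replicate block changed 2 calls, those of ATG13 and ATG4D between the siRNAs (adjusted p = 0.0542 and 0.0523), which left 3 members lower with siRNA2 than with siRNA1. Scaling by DESeq2 size factors moved the median of all genes by at most 0.0245 on the log2 scale. Depth limits the 2 untested members, MAP1LC3B2, ATG10 and ATG4C most. ATG4C held 71, 76 and 78 counts in the siRNA1 libraries, where the lowest ATG10 library held 75.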

Other observations

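The promoters of the members seldom held the E-box core CACGTG, the word at the centre of the motif bound by MiT/TFE factors. In the RefSeq windows on GRCh38.p14, from 250 bases before to 50 bases after the start, 2 of 34 tested members with a matching window held it (5.9%), against 9.9% of 10796 tested genes. The word reads the same on both strands. The carriers were ATG14, higher with both siRNAs, and ATG3, lower with both, whose window holds the word more than once. The ATG14 window, chr14:55411834-55411863 on the minus strand, is shown because it is the 1 carrier that rose, with the word in capitals.
ATG14: aaaacaaaatccCACGTGactggctctcct
In the 32 members without the word the log2 fold change had a median of 0.14 under siRNA1 and 0.28 under siRNA2. In the 2 carriers it was 0.13 and 0.15, the middle of 1 rise and 1 drop, so the medians cannot be compared. No match says only that these letters are not in this window.

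MAP1LC3A was at 0.65 FPKM in control library 3 and at 0 to 0.13 FPKM in the 8 other libraries.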
